A study of Rattus norvegicus with 25 samples.

Results

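Livers of 3 male Sprague-Dawley rats that had been moved from a diet supplemented with pyrroloquinoline quinone (PQQ) to the same diet without it for 48 h, the depletion group, were compared with livers of 6 male Sprague-Dawley rats kept on standard laboratory chow. The arrays were chosen by their titles, which gave 9 of the 25 arrays of the series, 1 liver per array and no pooling. The depletion rats were born to dams that received 2 mg PQQ per g diet over the last 10 days of gestation, had eaten that diet themselves, and were switched at 6.5 weeks of age to the basal diet, which the labels call ASD. Set beside them here are 6 supplemented rats that stayed on the PQQ diet, 6 deficient rats that were on the basal diet throughout, and 4 repletion rats, which were deficient rats given 1.5 mg PQQ per kg body weight intraperitoneally every 12 h for 36 h. Depletion and chow rats therefore differed in the base diet, in PQQ history and in the recent switch, and these cannot be told apart. The labels used here give neither the hour at which livers were taken nor the age of the chow rats.

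PQQ is a redox-active quinone that serves as a cofactor of bacterial dehydrogenases and that mammals take in with food; in rodents it has been studied for its relation to mitochondrial content and growth. A change of base diet acts on the liver through several well-known routes. Dietary carbohydrate and fat set the transcription of fatty acid and sterol synthesis genes, mainly through the SREBP, ChREBP and LXR factors. Protein intake sets the level of amino acid catabolic enzymes, and the timing of meals and of light sets the phase of the liver's clock genes.

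Values are log2 spot intensities after background correction and quantile normalisation, so a difference of 1 is a doubling, and a negative difference means a lower level in depletion. Chow 1 and chow 2 were nearly identical arrays and were averaged, which left 5 chow samples against 3 depletion samples. A probe was said to pass at a Benjamini-Hochberg adjusted p under 0.05 over all 5172 probes tested in limma. Median background-subtracted intensity per array was 181 to 283 in depletion and 106 to 159 in chow, and the small number of samples limits the precision. Defective spots repeated between arrays and split the series into 5 array sets: the depletion arrays lay in set 4 with deficient 6, the chow arrays 1 to 3 in set 1 and the chow arrays 4 to 6 in set 5 with the repletion arrays. Because depletion and chow share no set, array set and diet cannot be told apart directly. Differences against each chow set are given for the genes the results turn on. Chow 6 and deficient 6 stood apart from the other arrays, at -31.1 and -46.5 on the second principal component, against -5.92 to 12.9 for the rest. Both had low intensity. On the first component, with 29.3% of the variance, the samples of array set 5, chow and repletion alike, lay at -21.5 to -10.6. The chow samples of set 1 lay at -3.81 and 2.58 and the depletion samples at -5.05 to 14.1.

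Depletion livers had more RNA than chow livers for enzymes that make and desaturate fatty acids, and less for a serine-degrading enzyme and other amino acid catabolic enzymes, for the steroid-metabolising P450 Cyp3a9, for the lipase Mgll and for the clock output gene Dbp. In all, 235 probes were higher and 243 lower, 9.24% of those tested. They corresponded to 180 genes higher and 179 lower, and 1 gene with probes on both sides is in each of these counts. At an unadjusted p under 0.05, 24.6% of the probes differed. The median difference over all tested probes was 0.04. Of the probes that passed, 473 could be set against both chow sets, and none changed sign between them. They were called by their difference from all chow samples, which averages over the sets, so like signs were largely set by that choice. Against set 1 alone 0.47% of probes passed, and against set 5 alone 17.2% did. The size was over 1.5 times as large against set 5 as against set 1 in 227 of the 473. Chow samples of set 5 differed from those of set 1 in 3.16% of probes.

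**Figure D1:**
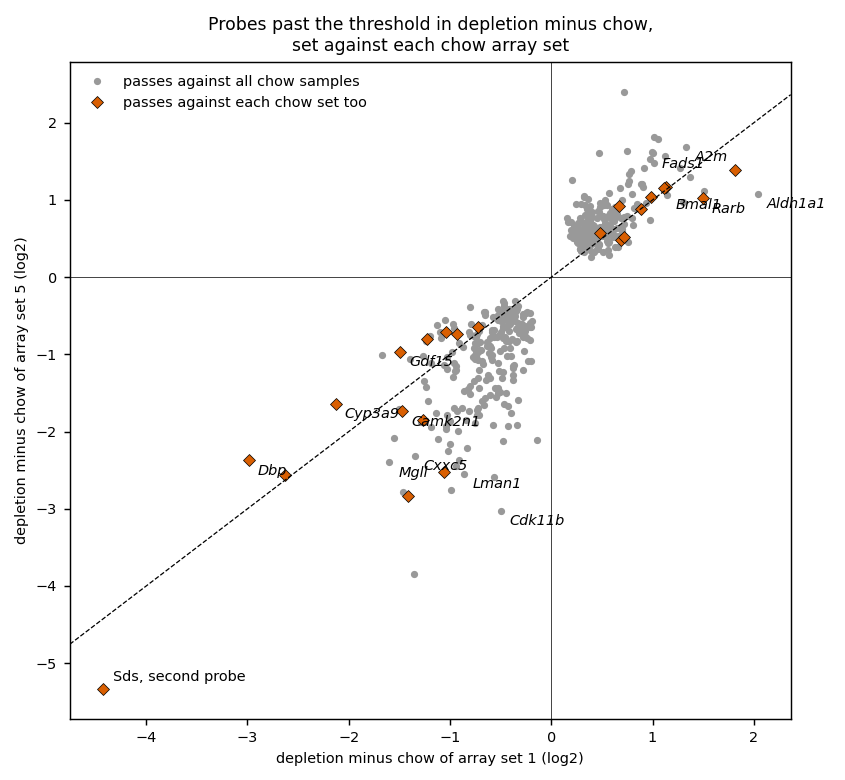
Each point is a probe that passed in depletion minus chow, placed by its difference from the chow samples of array set 1 (x axis) and of array set 5 (y axis), both log2; the dashed line marks equal differences. Orange diamonds are the 23 probes that also passed against each chow set alone; points far below the line on the left, such as Cdk11b and Lman1, differ mostly from set 5.

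With array set as a random block (correlation 0.546 within sets), 1 probe was higher and 6 were lower. Of the 78 genes followed individually, Cyp3a9, Mgll and Dgkq were those that still passed, with adjusted p of 0.027, 0.0445 and 0.0387. Without depletion 1 the counts were 61 higher and 92 lower, without depletion 2 they were 67 and 83, without chow 4 they were 126 and 154, and without chow 6 they were 144 and 155. With each array scaled to a common median, the median of all probes rose to 0.18 and the counts became 723 higher and 206 lower, 77.8% higher in place of 49.2%. Of the probes that passed in the authors' deposited values, 38.2% were higher.

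Fatty acid synthesis was the metabolic group with the most members higher. Of its 11 tested genes, 7 rose in depletion and 0 fell, with a median difference of 0.95 beside 0.04 for all probes and 4.54% of all probes called higher. The genes were Acly, which makes cytosolic acetyl-CoA from citrate, Me1, which supplies NADPH, Fasn, the synthase that builds palmitate, Elovl6, which lengthens palmitate, the fatty acid desaturases Fads1 and Fads2, and Acsl3, which activates long-chain fatty acids. The list was chosen with earlier results of these data known.

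Acly read 13.38, 13.74 and 13.88 in the depletion livers, against 12.66, 12.68, 12.12, 12.28 and 11.75 in the chow livers. All 3 depletion samples lay above all 5 chow samples, as they did for 9.09% of all probes tested. They lay below all chow samples for 7.58%. Among the 478 probes that passed, 416 lay outside the chow range. Lying outside that range was required of genes named by size, Acly among them, so for such genes the lack of overlap adds no support. The Acly difference was 1.37 ± 0.37 (SE), a 2.58-fold rise with an adjusted p of 0.0251. Me1 read 11.58, 12.08 and 11.65 in depletion and 10.64, 10.66, 9.90, 10.32 and 10.37 in chow. Again no sample overlapped, and the difference was 1.39 ± 0.35 (adjusted p = 0.0155); a second Me1 probe gave 1.36. Fads1 read 12.91, 13.20 and 12.56 in depletion and 11.93, 11.85, 11.23, 11.50 and 11.13 in chow, a separation of 1.36 ± 0.29 (adjusted p = 0.00595). Its partner Fads2 was at 12.13, 12.47 and 11.89 in depletion and at 11.43, 11.03, 11.37, 11.38 and 10.88 in chow, which is 0.95 ± 0.20 higher (adjusted p = 0.00617).

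Fasn read 12.50, 12.21 and 12.88 in depletion, against 11.72, 11.51, 10.91, 11.38 and 11.04 in chow. The groups did not overlap, and the difference of 1.22 ± 0.38 was close to the threshold (adjusted p = 0.048). Elovl6 read 8.32, 8.46 and 9.67 in depletion, against 7.38, 7.52, 7.35, 7.79 and 7.40 in chow. Depletion 3 was the highest sample, above the other 2, and the difference was 1.33 ± 0.32 (adjusted p = 0.014). Acsl3 rose by 0.73 ± 0.20 (adjusted p = 0.0258). Acaca, the rate-limiting carboxylase of the pathway, averaged 12.07 ± 0.25 in depletion and 11.35 ± 0.29 in chow (SD, n = 3 and 5) and missed the threshold at an adjusted p of 0.0568. Elovl5, Acsl4 and Acsl1 had differences of 0.37, -0.02 and -0.32 and did not pass.

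Over all 11 tested genes the median difference was 0.92 against chow set 1 and 0.96 against chow set 5, and most of the genes that rose differed more from set 5. Acly was higher by 0.998 against set 1 and by 1.62 against set 5, Fads1 by 1.004 and 1.60, Me1 by 1.12 and 1.57, Fasn by 0.92 and 1.42, and Acsl3 by 0.58 and 0.83. For Elovl6 (1.37 and 1.30) and Fads2 (0.94 and 0.96) the sets gave closer values. The number of genes passing was 0 against set 1 and 8 against set 5. It was 4 without depletion 1, 1 without depletion 2, 4 without depletion 3, 4 without chow 6 and 0 with array set as a random block. In the supplemented and deficient groups the same 11 genes had medians of 0.60 in supplemented minus chow and 0.55 in deficient minus chow; these comparisons share the chow samples with depletion minus chow. Acly was higher than in chow by 1.37 in depletion, by 0.68 in supplemented and by 0.72 in deficient livers. Fads1 differed by 1.36, 0.94 and 1.10 in the same order, and Fads2 by 0.95, 0.60 and 0.90. Fads1 and Fads2 passed in supplemented and in deficient minus chow, while Acsl3 passed in supplemented (0.65) and not in deficient (0.05). Acly passed in neither, nor did Me1 (0.66 and 0.66), Elovl6 (0.68 and 0.55) or Fasn (0.27 and 0.49). Depletion did not differ past the threshold from the mean of supplemented and deficient for any of the 7 genes, and the differences there were 0.20 to 0.84.

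**Figure D2:**
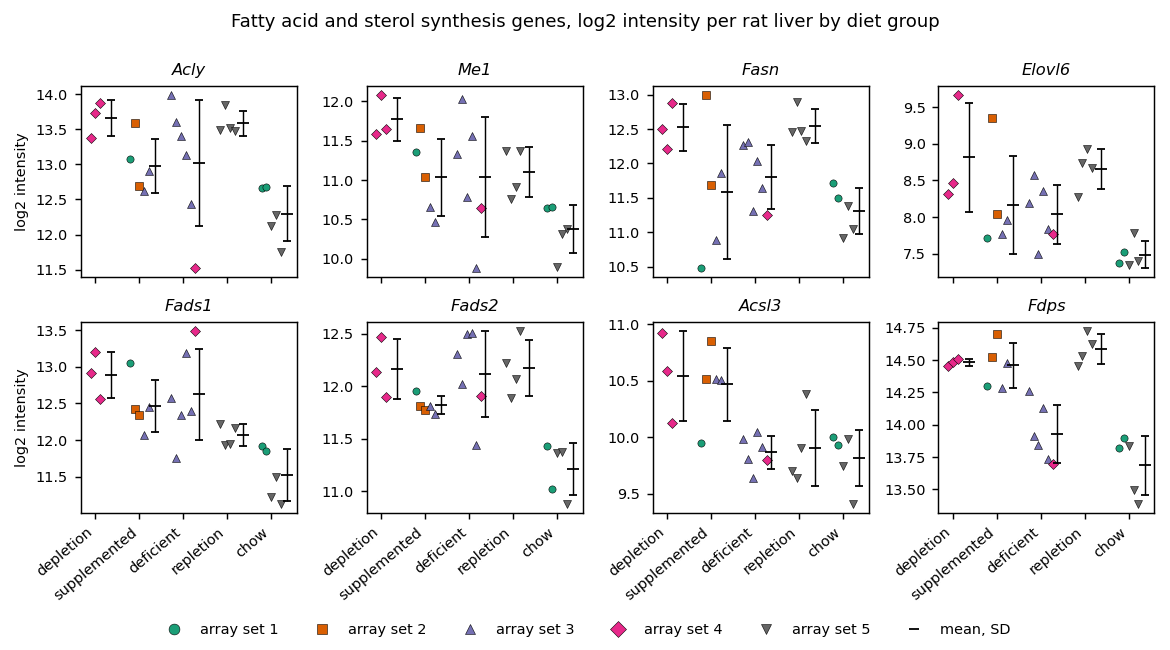
Log2 intensity of 7 fatty acid synthesis genes and Fdps in each liver, by diet group; symbols mark the array set, and the bar beside each group is the mean with its SD. All 3 depletion samples lie above all chow samples in each of the 8 panels, which was a condition for genes named by size.

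Sterol synthesis moved less. Of 14 tested genes, 2 rose and 0 fell, beside 4.54% of all probes called higher. The median difference was 0.43, at 0.09 against chow set 1 and 0.52 against set 5. Fdps, which makes farnesyl diphosphate, read 14.46, 14.48 and 14.51 in depletion and 13.82, 13.89, 13.84, 13.49 and 13.39 in chow. The depletion samples lay close together and above every chow sample, a rise of 0.80 ± 0.14 (adjusted p = 0.00202). Nsdhl, a sterol dehydrogenase, rose by 0.71 ± 0.15 (adjusted p = 0.0063). Msmo1 averaged 12.34 ± 0.38 in depletion (SD, n = 3) and 11.31 ± 0.27 in chow (SD, n = 3, set 5 only, since its spots were defective in set 1), with an adjusted p of 0.0538. Sqle, the squalene epoxidase, averaged 8.48 ± 0.24 in depletion, 9.23 ± 0.16 in supplemented and 8.07 ± 0.39 in chow livers (SD), and depletion minus chow did not pass. Lss, the next enzyme of the pathway, averaged 8.76 ± 0.50 in depletion, 9.79 ± 0.15 in supplemented, 9.19 ± 0.33 in deficient and 9.02 ± 0.43 in chow livers (SD), and depletion was lower than the mean of supplemented and deficient by a log2 difference of -0.72 (adjusted p = 0.0482).

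Some genes of fatty acid oxidation also passed. In mitochondrial beta-oxidation 3 of 13 tested genes rose and 0 fell, with a median of 0.29, beside 4.54% of all probes called higher. These were Hadhb, a subunit of the trifunctional protein (0.66 ± 0.16, adjusted p = 0.0141), Decr1, which handles unsaturated chains (0.77 ± 0.19, adjusted p = 0.0151), and Acadl, the long-chain acyl-CoA dehydrogenase (0.53 ± 0.15, adjusted p = 0.0323). None of the 3 passed against chow set 1 alone or with array set as a random block, and 0 of the list passed without depletion 1 or without depletion 2. Among peroxisomal genes Crat, carnitine acetyltransferase, read 10.11, 10.43 and 9.53 in depletion and 9.27, 8.83, 8.58, 8.50 and 8.39 in chow, 1.31 ± 0.23 higher with no overlap (adjusted p = 0.00194), at 0.97 against chow set 1, without passing there, and 1.53 against set 5. Amacr, the racemase for branched-chain and bile acid intermediates, fell by 1.51 on the log2 scale (adjusted p = 0.0241), and its second probe gave -0.57 without passing. Hacl1, which cleaves 2-hydroxy acids, also fell and is described below.

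Mgll, monoacylglycerol lipase, had the largest fall after Dbp, by brightest probes, among the named genes. It read 7.92, 8.49 and 8.30 in depletion, against 9.89, 9.79, 10.34, 10.20 and 11.36 in chow. The highest depletion sample lay well below the lowest chow sample, and the difference was -2.08 ± 0.43 (adjusted p = 0.0052), at -1.60 against chow set 1 without passing and -2.40 against set 5. Supplemented livers differed from the same chow samples by -1.73 and deficient livers by -2.03. Deficient 6, on the array set of the depletion livers, read 10.20, among the chow values and apart from the other deficient livers. Fabp2, the intestinal-type fatty acid binding protein, rose by 1.27 ± 0.29 (adjusted p = 0.00913), with 1.22 on a second probe that did not pass.

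Amino acid catabolism was lower for a minority of its enzymes. Of 25 tested genes, 5 fell and 0 rose, beside 4.7% of all probes called lower. The list median was -0.19, or 0.01 under median scaling, where the median of all probes was 0.18. Sds, serine dehydratase, read 10.15, 11.46 and 11.32 in depletion and 12.33, 12.64, 12.17, 12.62 and 13.28 in chow. All depletion samples were below all chow samples, with depletion 1 lowest, and the difference was -1.63 ± 0.36 (adjusted p = 0.00685). A dimmer second probe of Sds averaged 6.36 in depletion and 11.33 in chow, a difference of -4.97 ± 0.57 (adjusted p = 6.36e-05), so the probes share the direction and differ in size.

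Prodh, proline dehydrogenase, read 10.15, 9.89 and 10.15 in depletion and 11.65, 10.98, 11.20, 11.68 and 11.35 in chow. The groups were separated by -1.31 ± 0.26 (adjusted p = 0.00365). Gls2, the liver glutaminase, read 10.24, 10.10 and 10.24 in depletion and 11.79, 11.07, 10.88, 11.29 and 10.88 in chow, a difference of -0.99 ± 0.27 (adjusted p = 0.025). Gpt, alanine aminotransferase, fell by 0.89 on the log2 scale (adjusted p = 0.0324), and Dao, D-amino acid oxidase, by 0.59 (adjusted p = 0.0427). Gnmt, which uses S-adenosylmethionine to methylate glycine, was the 1 of 12 sulfur amino acid genes that fell, beside 4.7% of all probes. It read 13.74, 13.67 and 13.41 in depletion and 14.72, 14.70, 14.37, 14.09 and 14.48 in chow. No sample overlapped, and the difference was -0.86 ± 0.26 (adjusted p = 0.0386).

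Differences of like direction stood in the supplemented and deficient groups. Those comparisons reuse the chow samples by which the genes were called, so a like sign is partly set by that choice. Supplemented minus chow was -1.78 for Sds, -1.33 for Prodh, -1.27 for Gls2 and -1.21 for Gpt. Deficient minus chow was -0.93 for Sds, -1.12 for Prodh, -1.19 for Gls2 and -0.73 for Gpt. For these 4 genes depletion minus the mean of supplemented and deficient was between -0.28 and 0.24 and did not pass. The number of amino acid genes that fell was 1 without depletion 1, 2 without depletion 2, 3 without depletion 3 and 3 without chow 6. It was 0 against chow set 1, 5 against chow set 5 and 0 with array set as a random block. Sds differed by -1.51 from chow set 1 and by -1.71 from set 5, Prodh by -1.25 and -1.35, and Gls2 by -1.24 and -0.83.

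Among 16 tested cytochrome P450 genes 2 fell and 0 rose, beside 4.7% of all probes called lower. Cyp3a9, a P450 that hydroxylates steroids, read 7.66, 7.27 and 7.26 in depletion, against 9.34, 9.71, 8.85, 9.11 and 9.16 in chow. The samples did not overlap, and the difference was -1.84 ± 0.22, a level 3.58-fold lower (adjusted p = 6.36e-05). It passed against chow set 1 (-2.13), against chow set 5 (-1.64), with array set as a random block (-1.88) and in each of the other alternatives tried, 26 in all. Supplemented, deficient and repletion livers differed from the same chow samples by -1.98, -1.32 and -1.65. Cyp1a2, which oxidises caffeine and aromatic amines, fell by 0.75 on the log2 scale (adjusted p = 0.029). Hsd17b2, a 17-beta-hydroxysteroid dehydrogenase, read 9.24, 9.47 and 10.80 in depletion and 11.74, 11.05, 11.32, 11.76 and 12.67 in chow, a difference of -1.87 ± 0.49 (adjusted p = 0.0217). Hsd17b6, a related steroid dehydrogenase, averaged 10.02 ± 0.99 in depletion, 8.62 ± 0.90 in supplemented, 8.68 ± 0.67 in deficient and 11.74 ± 0.97 in chow livers (SD). Its groups overlapped, since depletion 3 at 10.95 was above chow 4 at 10.28, and depletion minus chow was -1.72 with an adjusted p of 0.0523. Cyp17a1, the steroid 17-hydroxylase, gave 0.07 on its brightest probe and 1.56 ± 0.32 on the other (adjusted p = 0.00468), so its probes disagree. Of 17 conjugating enzymes tested, 0 passed in either direction in limma and 2 had an unadjusted p under 0.05.

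**Figure D3:**
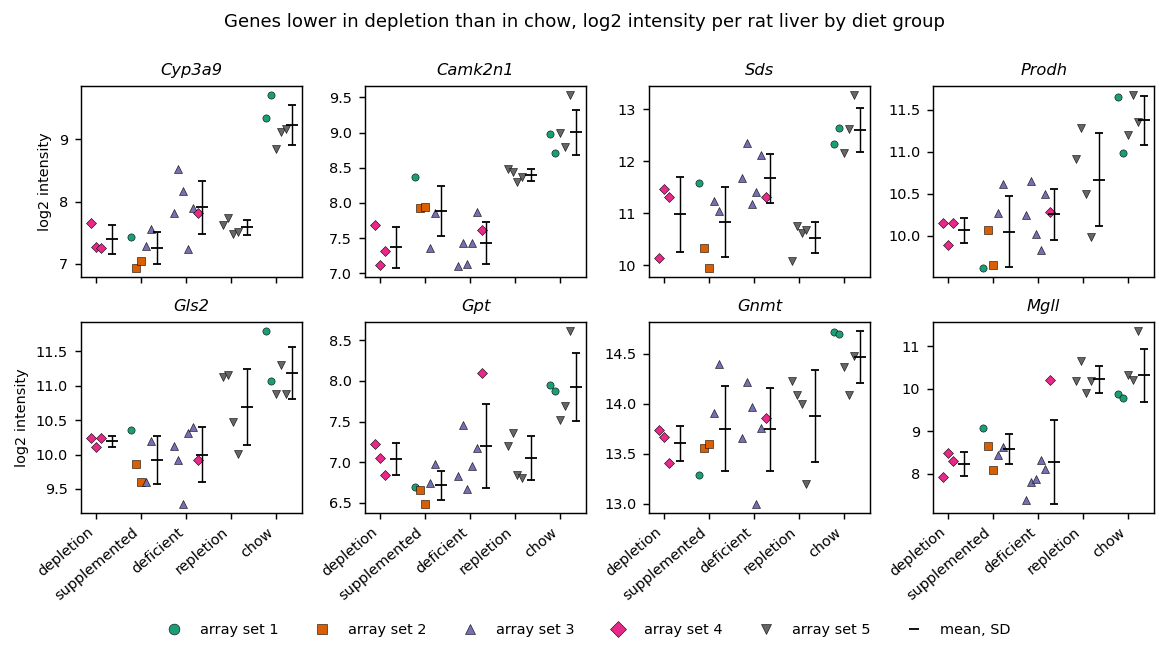
Log2 intensity of 8 genes that fell in depletion relative to chow, in each liver by diet group; symbols mark the array set, and bars are the mean with its SD. All 3 depletion samples lie below all chow samples in each panel, which was a condition for genes named by size. Repletion livers, on the array set of chow 4 to 6, stand near chow for Mgll and near depletion for Cyp3a9.

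The clock list held 5 tested genes, of which 3 fell and 1 rose, beside 9.24% of all probes called in either direction. Dbp, a D-box binding factor driven by the clock, and Usp2, a deubiquitinase with a strong daily rhythm in liver, are outputs that peak together, Nr1d2 (REV-ERB beta) represses through ROR response elements, and Bmal1 is a core activator whose rhythm runs opposite to theirs. Dbp, Usp2 and Nr1d2 were lower in depletion and Bmal1 was higher. The upstream sequences of these 4 genes are shown because 1 of the genes, Nr1d2, encodes a factor known to bind the element searched for. They are the 250 bases before the start site used in a RefSeq promoter table on GRCr8, which for Bmal1 and Usp2 lies inside the annotated gene span, downstream of its outermost start. The hexamer AGGTCA, the core of the ROR response element, searched on both strands, is in capitals where it is present.
Bmal1, chr1:176766078-176766327, plus strand: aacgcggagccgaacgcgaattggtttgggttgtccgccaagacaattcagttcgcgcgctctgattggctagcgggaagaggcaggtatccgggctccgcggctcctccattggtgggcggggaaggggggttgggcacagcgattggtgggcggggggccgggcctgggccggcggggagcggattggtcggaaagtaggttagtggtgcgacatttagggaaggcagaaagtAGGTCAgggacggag
Nr1d2, chr15:9954784-9955033, plus strand: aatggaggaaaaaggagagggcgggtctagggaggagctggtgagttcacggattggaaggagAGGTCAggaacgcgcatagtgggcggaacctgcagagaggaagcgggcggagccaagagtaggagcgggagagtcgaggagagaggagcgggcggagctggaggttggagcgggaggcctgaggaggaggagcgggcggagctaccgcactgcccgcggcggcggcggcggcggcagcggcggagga
Usp2, chr8:53310620-53310869, plus strand: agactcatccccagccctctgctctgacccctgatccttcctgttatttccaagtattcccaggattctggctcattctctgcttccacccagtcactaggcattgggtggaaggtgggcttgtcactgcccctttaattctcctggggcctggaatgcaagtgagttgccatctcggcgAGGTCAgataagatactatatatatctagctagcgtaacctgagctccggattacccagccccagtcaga
Dbp, chr1:105312006-105312255, plus strand: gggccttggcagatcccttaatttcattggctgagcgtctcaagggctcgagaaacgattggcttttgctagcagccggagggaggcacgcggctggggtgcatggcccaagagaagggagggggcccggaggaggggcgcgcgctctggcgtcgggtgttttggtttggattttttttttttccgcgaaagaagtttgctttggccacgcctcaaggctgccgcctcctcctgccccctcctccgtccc

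AGGTCA was present upstream of Bmal1, Nr1d2 and Usp2, with its first base at -15, -187 and -70 from that start site, and not upstream of Dbp. It was present in 13.66% of the 27457 RefSeq promoter windows of that length. Neither the E-box CACGTG nor the D-box TTATGTAA was found in these 4 windows, which leaves elements outside them unread. A match describes the letters and shows no binding. Of the 7 fatty acid synthesis genes that rose, 5 had a window, and 0 of these held CACGTG or the sterol element TCACNCCAC.

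Dbp read 9.24, 8.79 and 10.84 in depletion, against 12.59, 12.62, 11.87, 11.59 and 12.52 in chow. Every depletion sample was below every chow sample, though depletion 3 was closest to chow. The difference was -2.62 ± 0.37, which is 6.14-fold lower (adjusted p = 0.000446), and it was -2.99 against chow set 1 and -2.37 against chow set 5, passing against each. Bmal1 ran the other way, at 9.33, 9.25 and 8.55 in depletion and 7.84, 7.96, 8.36, 8.20 and 7.36 in chow. No sample overlapped, and the rise was 1.10 ± 0.26 (adjusted p = 0.011). Usp2 read 7.67, 7.57 and 8.54 in depletion and 8.94, 8.98, 8.96, 8.77 and 9.62 in chow, a difference of -1.13 ± 0.34 (adjusted p = 0.0394). Nr1d2 fell by 0.54 on the log2 scale (adjusted p = 0.036), with depletion samples at 11.36, 11.10 and 11.23 and chow samples from 11.37 to 12.04. Cry2, a clock repressor, averaged 9.24 ± 0.51 in depletion and 9.90 ± 0.24 in chow (SD, n = 3 and 5) and did not pass (adjusted p = 0.0596). Against chow sets 1 and 5 the difference was 1.14 and 1.07 for Bmal1, -1.03 and -1.19 for Usp2, and -0.66 and -0.45 for Nr1d2, and against set 1 none of these 3 passed (adjusted p = 0.113, 0.289 and 0.121).

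Dbp, Usp2, Nr1d2 and Bmal1 also differed between the purified-diet groups, in a test that uses no chow sample. It reuses the 3 depletion samples, so it is not independent of depletion minus chow. Apart from deficient 6, the supplemented and deficient arrays lie in array sets 1 to 3 and the depletion arrays in set 4. Array set and group therefore cannot be told apart directly in this test either. Dbp averaged 9.62 ± 1.08 in depletion, 11.08 ± 0.52 in supplemented and 13.38 ± 0.16 in deficient livers (SD, n = 3, 5 and 6), and depletion was -2.61 from the mean of the other groups (adjusted p = 0.000233). Bmal1 averaged 9.04 ± 0.43 in depletion, 8.38 ± 0.32 in supplemented and 6.94 ± 0.16 in deficient livers, a contrast of 1.38 (adjusted p = 0.00236). For both genes supplemented lay between depletion and deficient. Usp2 averaged 7.93 in depletion, 9.04 in supplemented and 9.91 in deficient livers, a contrast of -1.55 (adjusted p = 0.00893). Nr1d2 averaged 11.23, 11.54 and 12.29 in the same order, with supplemented closer to depletion than to deficient, a contrast of -0.68 (adjusted p = 0.0113). Relative to chow, deficient livers were higher for Dbp (1.14) and lower for Bmal1 (-1.01), the opposite of depletion. Array set 4 holds the depletion arrays and deficient 6. There the depletion mean minus deficient 6 was -3.79 for Dbp, -2.49 for Usp2, -1.41 for Nr1d2 and 2.16 for Bmal1. The deficient side was 1 sample, whose array stood apart from the others, and no test was run. Without depletion 2 or without depletion 1, 1 clock gene passed in depletion minus chow, with array set as a random block 0 did, and Dbp was then at an adjusted p of 0.0507.

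Across all probes, 201 passed in depletion minus the mean of supplemented and deficient, 3.89% of those tested, 85 higher and 116 lower. Hacl1, which shortens branched-chain and 2-hydroxy fatty acids in peroxisomes, read 12.16, 12.07 and 11.73 in depletion and 13.29, 13.13, 12.74, 12.58 and 13.04 in chow. It was lower than chow by a log2 difference of -0.97 ± 0.20 (adjusted p = 0.00484), while supplemented and deficient livers differed from chow by 0.39 and 0.78. The contrast of depletion with their mean was -1.56 (adjusted p = 8.5e-05). Rarb, a retinoic acid receptor, read 11.01, 11.22 and 10.91 in depletion and 9.61, 9.50, 10.08, 10.04 and 9.98 in chow. All depletion samples were above all chow samples by a mean of 1.21 ± 0.24 (adjusted p = 0.00449), against -0.14 and -0.28 in supplemented and deficient livers, and the contrast was 1.42 (adjusted p = 0.00154).

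Pfkfb1, the liver enzyme that sets fructose 2,6-bisphosphate, fell by 0.76 on the log2 scale relative to chow (adjusted p = 0.0171) and by 1.12 relative to the mean of supplemented and deficient (adjusted p = 0.00154). Ddhd1, a phospholipase, read 8.24, 8.03 and 8.11 in depletion and 6.95, 7.06, 6.80, 7.32 and 6.78 in chow, 1.14 ± 0.17 higher (adjusted p = 0.000644), and it exceeded the mean of supplemented and deficient by 0.90 (adjusted p = 0.00238). Gdf15, a stress-induced cytokine, read 7.92, 8.08 and 7.99 in depletion and 9.49, 9.49, 9.55, 8.99 and 8.36 in chow, a difference of -1.18 ± 0.24 (adjusted p = 0.00476). Its contrast with the mean of supplemented and deficient was -0.91 (adjusted p = 0.0203). Chow 6 was the closest chow sample to depletion for Gdf15. Cars1, the cysteinyl-tRNA synthetase, was higher than chow by 0.89 ± 0.16 (adjusted p = 0.00202) and higher than the mean of supplemented and deficient by 0.61 (adjusted p = 0.0171). Supplemented livers were also higher than chow for Cars1, by 0.62 (adjusted p = 0.00862), while deficient minus chow was -0.07. For Gdf15 supplemented minus chow was -0.54 and deficient minus chow 0.001, and neither passed. Repletion minus chow, which shares the chow samples, was -1.23 for Hacl1 (adjusted p = 0.001), 1.02 for Rarb and -1.20 for Gdf15. It was 0.98 for Cars1, -0.62 for Pfkfb1 and -1.23 for Dbp, and each of the values had the sign of depletion minus chow. Pfkfb1 did not pass there (adjusted p = 0.0792). Ddhd1 had the same sign at 0.45 and did not pass (adjusted p = 0.167). Repletion livers averaged 11.72 ± 0.21 for Hacl1 (SD, n = 4), beside 11.99 ± 0.23 in depletion (SD, n = 3).

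Within array set 4 the depletion mean minus deficient 6 was -2.11 for Hacl1, 1.77 for Rarb, -1.16 for Pfkfb1 and 0.92 for Ddhd1. For Ednra, 0.47 higher in the contrast, it was -0.03. These values rest on 1 deficient sample, whose array stood apart from the others, and were not tested. The number of probes that passed in this contrast depended on single samples. It was 30 without depletion 2, 75 without depletion 1, 87 without depletion 3 and 381 without deficient 6. Mobp, a myelin protein gene that earlier results had named, averaged 10.29 ± 0.13 in depletion, 11.16 ± 0.24 in supplemented, 11.62 ± 0.27 in deficient and 9.81 ± 0.63 in chow livers (SD). It was lower in depletion than in the mean of supplemented and deficient by a log2 difference of -1.10 (adjusted p = 0.0113), and depletion minus chow was 0.48 without passing, at -0.17 against chow set 1 and 0.91 against set 5.

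**Figure D4:**
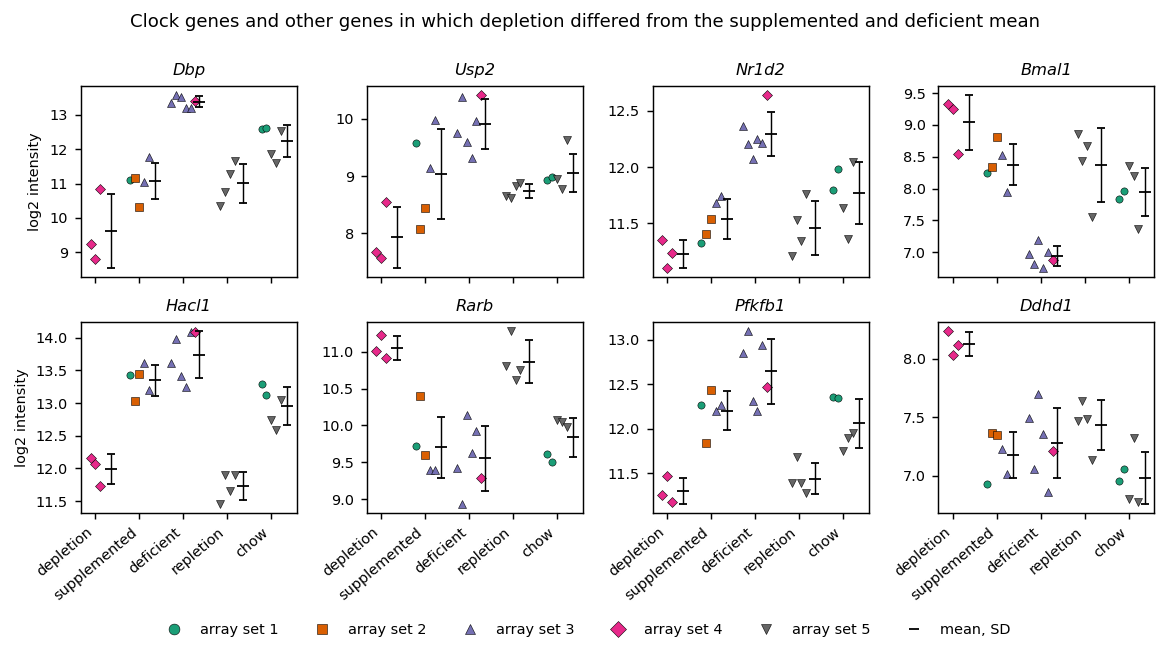
Log2 intensity of 4 clock genes and 4 further genes in each liver, by diet group; symbols mark the array set, and bars are the mean with its SD. Deficient livers are high and depletion livers low for Dbp, Usp2, Nr1d2, Hacl1 and Pfkfb1, the reverse holds for Bmal1, and depletion lies above supplemented, deficient and chow for Rarb and Ddhd1.

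A set of 23 probes passed against each chow set on its own, 10 higher and 13 lower, 2 of them without a gene symbol. The 8 higher ones named by their brightest probe were Myh9, Ednra, Ctnnbl1, Dgkq, Cars1, Ddhd1, Enc1 and Rarb. Myh9, the non-muscle myosin heavy chain, read 11.75, 11.70 and 11.70 in depletion and 11.17, 11.28, 11.17, 11.16 and 11.10 in chow, a small and tight rise of 0.54 ± 0.08 (adjusted p = 0.000824). Enc1, an actin-binding kelch protein, rose by 1.16 ± 0.20, Dgkq, a diacylglycerol kinase, by 0.82 ± 0.13, Ctnnbl1, a splicing-complex protein, by 0.60 ± 0.10, and Ednra, the endothelin A receptor, by 0.57 ± 0.13. The lower ones named by their brightest probe were Dbp, Cyp3a9, Camk2n1, Col1a1, Gdf15, Hacl1, Sertad1, Klf16 and Tmem179b. Camk2n1, an inhibitor of CaM kinase II, read 7.69, 7.11 and 7.31 in depletion and 8.98, 8.70, 8.99, 8.79 and 9.54 in chow, lower by -1.63 ± 0.21 (adjusted p = 0.000148). Klf16, a zinc finger repressor, read 7.13, 7.02 and 7.08 in depletion and 7.80, 8.22, 7.75, 7.83 and 7.85 in chow, lower by -0.81 ± 0.11 (adjusted p = 0.000446). The remaining named probes belong to Sds and Cyp17a1, described above, and to Igfbp3 and Atxn7l3b. For Igfbp3 this probe gave -2.26 and the brighter one -0.38, and for Atxn7l3b they gave -1.94 and -0.06, so neither gene is counted as lower.

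Other large falls were set mostly by the chow samples of array set 5. Cdk11b, a kinase that acts in splicing and the cell cycle, read 6.10, 6.24 and 6.31 in depletion, with 2 of the 3 arrays above background. Chow livers read 7.03 and 6.40 in set 1 and 9.10, 9.05 and 9.56 in set 5, so the difference was -0.50 against set 1 and -3.02 against set 5. Lman1, a cargo receptor of the secretory pathway, differed by -0.86 and -2.55 in the same order, Ddx24 by -0.94 and -2.44, and Srrm2, a splicing protein, by -0.83 and -2.21. A second Srrm2 probe gave -0.24 over all chow samples. Repletion livers, which share array set 5 with those chow samples, averaged 8.89 ± 0.24 for Cdk11b and 11.06 ± 0.23 for Lman1 (SD, n = 4). For Cxxc5, Dusp7 and Klf9 the sets gave less unequal values. These genes differed by -1.35, -1.12 and -1.19 from set 1 and by -2.31, -2.10 and -1.94 from set 5. None of them passed against set 1 alone. Repletion livers averaged 10.03 ± 0.46 for Dusp7 and 8.87 ± 0.21 for Klf9 (SD, n = 4), beside chow means of 10.14 and 8.97.

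Among the largest rises were plasma protein genes. A2m, alpha-2-macroglobulin, which is an acute phase protein in the rat, read 9.06, 10.11 and 10.39 in depletion and 8.36, 8.69, 8.52, 8.10 and 7.86 in chow, higher by 1.55 ± 0.33 (adjusted p = 0.00617), at 1.33 against chow set 1 without passing and 1.69 against set 5. Supplemented, deficient and repletion livers were higher than the same chow samples by 1.51, 1.91 and 1.77. Its relative Pzp rose by 1.29 ± 0.28 (adjusted p = 0.00685) and Itih3, an inter-alpha-trypsin inhibitor chain, by 0.54 ± 0.13 (adjusted p = 0.0138). Orm1, orosomucoid, fell by 0.84 on the log2 scale (adjusted p = 0.0382). The 12 tested acute phase genes thus had 2 higher and 1 lower, beside 9.24% of all probes called in either direction. Aldh1a1, a retinaldehyde dehydrogenase, read 9.91, 10.55 and 10.27 in depletion and 7.95, 8.46, 9.72, 9.46 and 8.32 in chow, higher by 1.46 ± 0.43 (adjusted p = 0.0371). Hhex, a hepatic homeobox factor, rose by 1.50 ± 0.47 (adjusted p = 0.0453), and Ptgis, prostacyclin synthase, by 1.28 ± 0.26 (adjusted p = 0.00468). With array set as a fixed block the difference of Ptgis turned to -0.75. Against chow sets 1 and 5 the difference was 0.75 and 1.63 for Ptgis, 1.06 and 1.79 for Hhex, and 2.04 and 1.08 for Aldh1a1. None of these genes passed against set 1, and Aldh1a1 did not pass against set 5 either. Repletion minus chow was -0.02 for Ptgis.

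Several lists had few or no members past the threshold in depletion minus chow, where 4.54% of all probes were called higher and 4.7% lower. Of 23 oxidative phosphorylation genes, 1 rose, Uqcrc2 of complex III by 0.55 ± 0.14 (adjusted p = 0.0178), and the list median was -0.06. In limma 0 of 22 ribosomal protein genes and 0 of 11 redox and mitochondrial signalling genes passed, and 1 gene of each list had an unadjusted p under 0.05. Among the 3 IGF axis, 3 cell proliferation and 2 urea cycle genes tested 0 passed, with 1, 2 and 0 at an unadjusted p under 0.05. Of 28 proteasome genes 3 rose, Psmc1 (0.40), Psmc4 (0.38) and Psmd5 (0.46). Of 16 glycolysis and gluconeogenesis genes Ldha rose by 0.41 ± 0.10 (adjusted p = 0.0143) and Pfkfb1 fell. Of 12 bile acid genes Amacr fell, of 10 endoplasmic reticulum folding genes Lman1 fell, and of 4 immediate early genes Atf3, a stress-response factor, fell by 0.46 on the log2 scale (adjusted p = 0.0317). Txn1, thioredoxin, averaged 13.55 ± 0.03 in depletion and 13.81 ± 0.17 in chow (SD, n = 3 and 5) and did not pass.

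Markers of liver cell types were read in the same samples, where 9.24% of all probes passed in either direction. All 4 hepatocyte markers on the array, Alb, Apoa1, Fgb and Tat, were above background on all 9 arrays, and 0 of 4 passed in limma (0 at an unadjusted p under 0.05), with mean levels per sample of 12.86 to 13.44 in depletion and 13.08 to 13.35 in chow. Among Kupffer cell markers 1 of 5 tested passed, Cd14, a receptor for bacterial lipopolysaccharide, which was 0.71 lower on the log2 scale in depletion (adjusted p = 0.0249), and the 6 markers on the array averaged 9.58 to 10.17 in depletion and 9.98 to 10.36 in chow. C1qa and Aif1 had differences of -0.45 and -0.11 and did not pass; Aif1 turned positive under median scaling, at 0.10. Lyz2 averaged 7.87 ± 0.55 in depletion and 8.19 ± 0.27 in chow (SD, n = 3 and 5). Among 4 stellate cell markers Col1a1, a fibrillar collagen chain, fell, with 8.77, 8.61 and 9.37 in depletion and 9.89, 10.48, 10.97, 10.79 and 10.52 in chow, a difference of -1.61 ± 0.23 (adjusted p = 0.000446). Pdgfrb, the PDGF receptor beta of the same list, had a difference of 0.44 and did not pass (adjusted p = 0.0538), and the list median was -0.14. The list averaged 10.19 to 10.55 in depletion and 10.47 to 11.02 in chow. Of 4 endothelial markers 0 passed in limma and 1 had an unadjusted p under 0.05, the neutrophil marker S100a9 read 8.39 to 8.87 in depletion and 7.28 to 8.61 in chow without passing, and of 3 lymphocyte markers on the array none was bright enough to be tested. In bulk liver, fewer cells of a type and less RNA per cell cannot be told apart, and the part of these markers in the results above was not tested.

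Which diet changes reappear in depletion was also read with no chow sample shared between the comparisons. Supplemented minus chow of array set 1 passed for 12 probes, 0.235% of those tested. In depletion minus chow of array set 5, 10 of the 12 had the same sign and 5 passed in the same direction, beside 17.2% of all probes passing there in either direction. These were Cyp3a9 (-1.64), Klf16 (-0.73), Adamts1, a secreted metalloproteinase (0.77), the second Sds probe (-5.33) and the second Cyp17a1 probe (1.39). Gls2 and Hsd17b6 had the same sign, with -0.83 and -1.74, and did not pass. An unnamed probe was higher in supplemented livers (2.49) and lower in depletion livers (-1.69), passing in both. The choice rested on few samples: 1 probe was chosen without chow 1 or without supplemented 3, 2 without chow 3, 5 without supplemented 1, 6 without supplemented 4 and 26 without supplemented 5, and 7 without depletion 3 or without chow 5. The number passing in the same direction then ranged from 1 to 12. The supplemented arrays include 1 of array set 1, while depletion shares no set with either chow group. With the chow sets exchanged, 1120 probes (21.8%) were chosen against set 5 and 1106 were measured against set 1. Of these 685 had the same sign in depletion, where 51.97% of all probes were positive, and 13 passed in the same direction and 1 in the opposite one, beside 0.47% of all probes.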

How the data were processed

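Liver RNA (Trizol, then Qiagen columns, per the labels' protocols) of single rats was labelled with biotin and hybridised to CodeLink UniSet Rat I arrays. The deposited scanner tables hold spot intensity and local background on a linear scale, with no normalisation between arrays, and a defect flag (0 or 1) as an other value, per the file headers. The deposited value table holds the authors' processed signal, whose normalisation is not given in the sources used here; it agrees in rank with the scanner values and leaves defective spots empty.

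The 9911 gene probes were background-corrected (normexp, offset 50) and quantile-normalised, defective spots set to missing, and log2 values fitted in limma 3.58.1 (R 4.3.3) with all groups in 1 fit. Near-identical pairs (spread of log ratios under 0.15, against 0.22 to 0.44 for other pairs) were averaged: chow 1 with 2 and supplemented 5 with 6. A probe was tested if it exceeded its array's median in 50% or more of either the depletion or the chow samples and was measured in 2 or more of each. Symbols came from GEO's platform annotation: 7356 probes had 1, 86 several and 2469 none. A gene is its brightest probe. Above background means over the median plus 3 MAD of the bacterial control spots at background. Array sets were formed from shared defective spots (overlap above 0.5).

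Genes named are up to 12 higher and 12 lower by size, above background and outside the chow range, up to 4 per list, and genes that earlier results had named; genes passing against both chow sets were added after their values were seen. Members, lists and tests were chosen with earlier results of these data known. The labels do not say how litters were spread over groups, so p-values measure the spread between these samples. Same-numbered depletion and chow samples did not deviate together (correlations -0.09 and -0.22). On simulated data for depletion minus chow over 5172 probes, 29.3%, 79.4% and 97% of changes of 0.5, 1 and 2 were recovered, with 3.7% false calls. The simulated samples were independent, without array sets or the within-set correlation of 0.546. These shares therefore do not carry over to the real arrays, where depletion and chow share no set. Promoter sequences are RefSeq's, on GRCr8. The result of 1 gene of the peroxisomal list is not reported here.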

Additional observations from a re-analysis of the deposited data

Results flagged for a closer look

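The first group of results is set apart by a test of the difference between diet groups, depletion minus the mean of supplemented and deficient, in limma with adjusted p under 0.05 (16 of 78 genes followed, beside 3.89% of all probes; genes were chosen in part for this). Beyond the values in the report, the log2 contrast was -0.62 for Klf16, -0.59 for Atf3, 0.40 for Ctnnbl1 and 0.47 for Ednra. It was -2.61 for Dbp, -1.55 for Usp2, -0.68 for Nr1d2 and 1.38 for Bmal1 among clock genes. It was -1.56 for Hacl1, -1.12 for Pfkfb1, -1.10 for Mobp, -0.91 for Gdf15 and -0.72 for Lss, and it was 1.42 for Rarb, 0.90 for Ddhd1 and 0.61 for Cars1.

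In the second group 1 sample lay far from the rest of its diet group by Dixon's criterion, which chance meets in about 1 in 20 groups; 15 of 311 gene and group combinations did. Among chow samples, Klf16 was at 8.22 in chow 3 with the next at 7.85, and Usp2 was at 9.62 in chow 6 with the next at 8.98. Deficient 6 was the sample apart for 4 genes, with Decr1 at 12.29, Ednra at 9.52, Lss at 9.83 and Mgll at 10.20, where the other deficient samples reached at most 8.33. In deficient livers Syt11 was at 11.42 in deficient 1 and Psmc1 at 11.63 in deficient 3. In supplemented 2, Elovl6 was at 9.35 and Cdk11b at 6.60. In repletion livers the samples apart were Aldh1a1 at 10.57, Acly at 13.85, Dgkq at 9.49, Cyp1a2 at 13.54 and Lman1 at 10.71.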

How the results depend on the processing

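The counts of probes higher and lower in depletion than in chow, 235 and 243, changed by over 1.5 times under several settings. They were 723 higher under median scaling, 154 higher in the deposited value table, 81 and 103 with depletion and chow alone in the fit, 597 and 522 with array weights, 30 and 91 with a change of at least 1 required, 10 and 14 against chow of array set 1, 467 and 419 against chow of array set 5, 1 and 6 with array set as a random block, and 665 higher with it as a fixed block, which links depletion to the other sets through deficient 6 alone. Leaving out each sample in turn gave 61 to 313 higher and 83 to 330 lower. Without the 2 arrays that stood apart, a setting chosen after seeing the data, they were 332 and 308. With a replicate block, although the numbers do not pair the samples, they were 145 and 154. The probes called in depletion minus the mean of supplemented and deficient, 201, became 845 with a random block, 1857 with a fixed block and 479 under median scaling, and 30 to 381 when samples were left out, a choice made after seeing the data. Of the probes chosen on separate chow sets, the 5 that passed became 13 with the sets exchanged, 4 under median scaling, 2 in the value table and 1 to 12 with samples left out. Named genes changed sign as follows. With the fixed block Ptgis was at -0.75, Syt11 at -0.63, Mobp at -0.13, Aif1 at 0.44, Sqle at -1.19, Psmc4 at -0.064 and Lyz2 at 0.75. With the random block Aif1 was at 0.11, Sqle at -0.25 and Lyz2 at 0.14. Against chow set 1 Syt11 was at -0.011, Mobp at -0.17 and Aif1 at 0.068, and Aif1 was at 0.10 under median scaling and 0.011 with array weights. Of these only Ptgis and Psmc4 passed over all chow samples. The cause was not tested for any of these changes.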

Other observations

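Further genes differed between depletion and the mean of supplemented and deficient. Slc28a2, a nucleoside transporter, was 1.33 higher in depletion (adjusted p = 0.00598), with means of 12.10 in depletion, 11.21 in supplemented, 10.34 in deficient and 11.49 in chow livers. Selenoi, an ethanolamine phosphotransferase, was 1.15 higher (adjusted p = 0.0113), and Insig2, which holds SREBP in the endoplasmic reticulum, 0.88 higher (adjusted p = 0.0494). Acox2, the peroxisomal oxidase for branched chains, was lower by a log2 difference of -1.25 (adjusted p = 0.0267), with means of 10.52 in depletion, 11.75 in supplemented, 11.81 in deficient and 11.29 in chow livers. G0s2, an inhibitor of adipose triglyceride lipase, was lower in depletion than in the mean of supplemented and deficient (-1.19, adjusted p = 0.0231) and than in chow (-1.03, adjusted p = 0.0453). In the same contrast Pdgfrb, a stellate cell marker, was 0.70 higher (adjusted p = 0.00561), while Col1a1 of that list was at -0.68 without passing and the median of its 4 tested genes was -0.17. Flt1, an endothelial marker, was lower by a log2 difference of -0.78 (adjusted p = 0.00196), with a median of -0.34 over the 4 endothelial markers tested. These genes were chosen after their values were seen.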
